A study of Lithospermum officinale with 3 samples.

Results

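The 100 most counted unigenes of the borage-family plant *Lithospermum officinale* are described here across leaf, stem and root. A unigene is a sequence assembled from the reads without a genome, and the deposited tables list 77047 of them, so the 100 members are 0.130% of all. They were chosen by the largest expected count, RSEM's estimate of the reads of a unigene, summed over the leaf, stem and root libraries, with ties going to the lower unigene number. Such estimates can be fractions, but every deposited one was whole, and it is not stated whether they were rounded or leave out reads with several targets. How reads of closely similar unigenes were counted is thus uncertain. The members' high counts and ranks are what selected them and are no finding, and the tissue ratios below, which come from the same counts, are descriptions only. The tissues came from 2-year-old plants grown outdoors, with no treatment, and the series title gives the search for genes of specialized metabolism as the aim. Leaf, stem and root had 1 library each, and the labels do not say how many plants went into a library. No value thus has an error from replicates, and tissues could not be tested against each other.

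The choice was close at its edge. Unigene58424, Unigene27896 and Unigene63856, at ranks 98 to 100, had 6654, 6647 and 6645 summed counts. Unigene7066, Unigene53870 and Unigene57387, at ranks 101 to 103, had 6628, 6619 and 6574. The totals just inside and just outside were thus close, while the tissue make-up differed widely: Unigene58424 had leaf, stem and root counts of 2447, 3744 and 463, and Unigene27896 had 29, 80 and 6538 in the same order.

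In plants, a few transcripts can take up much of an RNA-seq library. Photosynthesis messengers, such as those of the small subunit of Rubisco and of the chlorophyll-binding proteins, are known for this in leaves. Ribosomal RNA makes up most of total RNA, and capture on oligo(dT) beads, which was used here, is meant to enrich messenger RNA over it. Roots of the related *Lithospermum erythrorhizon* are known for red naphthoquinones such as shikonin. The files pair no unigene with a gene name and hold no sequence, so members are named by ID only, no member can be assigned to any of these classes, and the labelled tissues were not checked against marker genes.

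Expected counts summed to 3490670 in leaf, 4469828 in stem and 10045956 in root, a 2.88-fold range. Because summed counts weight the libraries by depth, the choice leaned on root. All intervals are 95% exact intervals and cover counting error only. Reads copied from 1 molecule were not told apart. A count of 0 in leaf allowed a level of up to 0.859 CPM (counts scaled to a common library total).

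In leaf the members held 59.0% of all counts (58.92% to 59.03%), in stem 43.5% (43.44% to 43.53%) and in root 56.7% (56.65% to 56.72%). A single unigene, Unigene28437, gave more of the root share than the other 99 did. With it left out of both the members and the library totals, the other 99 members held 49.0% of leaf (48.90% to 49.02%), 34.5% of stem (34.47% to 34.56%) and 34.0% of root (33.97% to 34.04%). Leaf and root were thus near each other with this unigene counted, and stem and root were near each other without it, while leaf was the highest both ways. The next 100 unigenes, at ranks 101 to 200, held only 2.42% of leaf, 3.13% of stem and 2.79% of root.

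**Figure D1:**
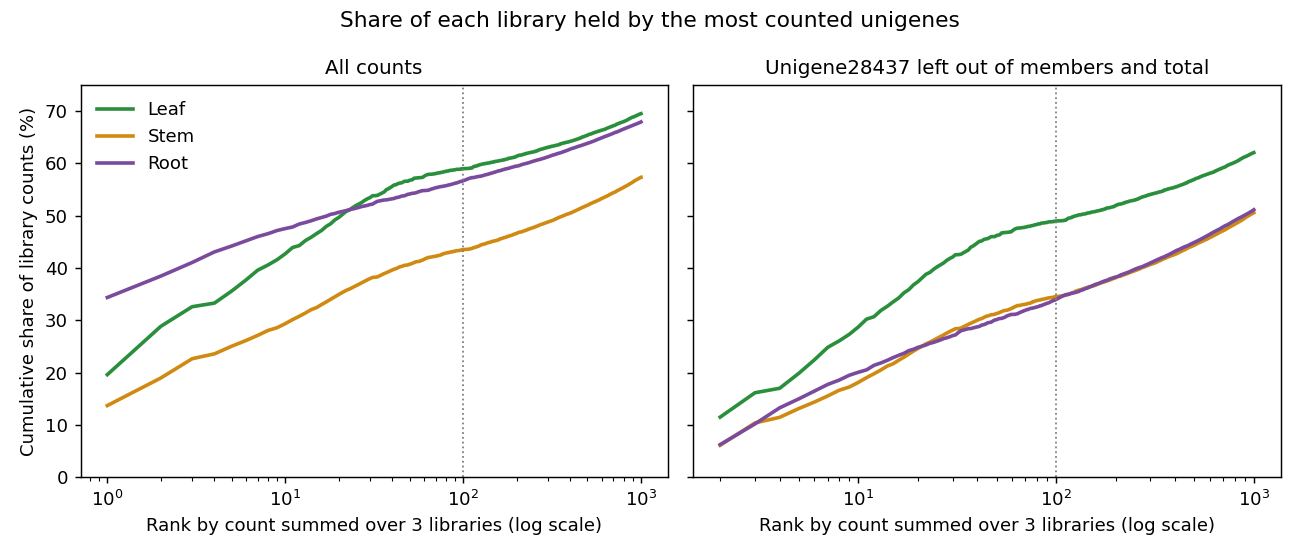
Cumulative share of the counts of the leaf, stem and root libraries (1 each) held by unigenes in order of summed count, on a log rank axis, with all counts (left) and with Unigene28437 left out of members and totals (right); the dotted line marks rank 100. At rank 100 the curves stood at 59.0% in leaf, 43.5% in stem and 56.7% in root with all counts, and at 49.0%, 34.5% and 34.0% without Unigene28437.

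The concentration was steep within each library as well. In leaf, the library's own 21 most counted unigenes made up 50% of its counts, against 294 in stem and 17 in root. Without Unigene28437, leaf needed 83, stem 807 and root 738. The inverse sum of squared shares, an effective number of equally counted unigenes, was 19.6 in leaf, 41.4 in stem and 8.23 in root with Unigene28437, and 51.8, 139 and 129 without it. Root was the most concentrated library with this unigene counted, and leaf was so without it.

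Unigene28437 is 8690 nt long and was the most counted unigene in all 3 libraries, with leaf, stem and root counts of 684813, 612607 and 3452318. This was 19.6% of the leaf library by counts, 13.7% of stem and 34.4% of root. Per length its place was lower in the shoot: it ranked 13th by TPM (transcript level, scaled so that each library has the same sum, after dividing counts by effective length) in leaf and in stem, and first in root, where it made up 5.71% of all TPM, against 2.11% in leaf and 1.52% in stem. With libraries scaled by the trimmed mean of M-values (TMM), its leaf over root ratio was 0.579 (0.577 to 0.580), its stem over root ratio 0.290 (0.289 to 0.290) and its leaf over stem ratio 2.00 (1.99 to 2.01). What kind of RNA it stands for was not tested.

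Leaving out Unigene28437 raised the CPM of every other unigene by 1.24-fold in leaf, 1.16-fold in stem and 1.52-fold in root. On library totals this moved every other log2 ratio by -0.29 for leaf over root, by -0.39 for stem over root and by 0.10 for leaf over stem. With TMM, which trims extreme unigenes, its removal moved these ratios by under 0.01 each, and all 100 members kept their tissue pattern. On library totals with Unigene28437 kept, 46 of the 100 members had another pattern than with TMM. On totals without it, 46 had as well, but the patterns themselves differed between these totals. Leaf and stem together stood over root for 32 members with Unigene28437 kept and for 15 without it. Root stood over both other tissues for 10 and 15 members, in that order.

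The other 9 of the 10 most counted members ran from 600 to 6532 nt and held 23.1% of leaf, 15.7% of stem and 13.2% of root counts. Unigene63717 (3598 nt) was second in every library, with leaf, stem and root counts of 322560, 235920 and 411686, and its TMM-scaled ratios were 2.29 (2.28 to 2.30) for leaf over root and 0.935 (0.930 to 0.940) for stem over root. Unigene63619 (3110 nt) stood at rank 3 in every library, with leaf, stem and root counts of 130747, 164454 and 260915. Leaf was the highest library for both after scaling.

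Unigene53343 (6532 nt) differed from these, with leaf, stem and root counts of 24049, 41471 and 202816. It ranked 4th in root, 8th in stem and 15th in leaf, and its leaf over root ratio was 0.346 (0.341 to 0.351). Unigene9617 (5874 nt) had leaf, stem and root counts of 80341, 65122 and 112930, Unigene42138 (5493 nt) had 72647, 47934 and 98260, and Unigene40860 (2150 nt) had 66464, 44723 and 83347, all in that order. These last 3 were alike, with leaf over root ratios of 2.08, 2.16 and 2.33 and leaf over stem ratios of 2.21, 2.71 and 2.66.

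Unigene63664 (2896 nt) had leaf, stem and root counts of 34826, 42020 and 55016. Unigene605 (978 nt) had 35224, 23615 and 61141, and Unigene13486 (600 nt) had 39552, 34513 and 37640 in the same order. All 3 were highest in leaf after scaling, with leaf over root ratios of 1.85, 1.68 and 3.07. Of the 10 most counted members, 8 were higher in leaf than in root and all 10 were higher in leaf than in stem, against 7 and 8 of the 10 on deposited TPM.

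**Figure D2:**
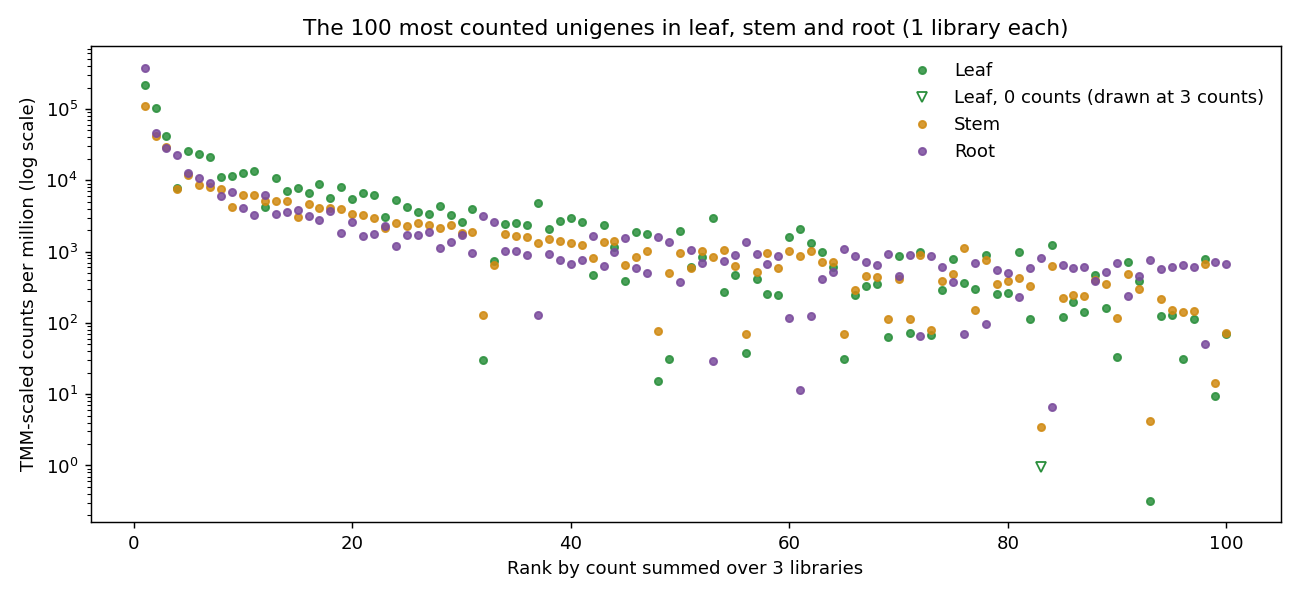
TMM-scaled CPM (log axis) of each of the 100 members in leaf, stem and root (1 library each), in order of summed count; the open triangle is a member with 0 leaf counts, drawn at 3 counts. The median range between the highest and lowest library was 3.03-fold at ranks 1 to 50 and 4.63-fold at ranks 51 to 100, where Unigene57388 had 0 leaf counts.

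The libraries shared only part of the list. Of the 100 members, 64 were also among leaf's own 100 most counted unigenes, 75 among stem's and 82 among root's, and 48 were on all 3 lists. A further 24 were on root's list alone, 16 on those of leaf and stem, 10 on those of stem and root, and 1 on stem's alone. None was on leaf's list alone, and 1, Unigene34355 at rank 92, was on no list. Across the 100 members, Spearman's rho of the counts was 0.506 between leaf and root, 0.584 between stem and root, and 0.955 between leaf and stem (Pearson's r of log2(count + 1) was 0.403, 0.506 and 0.964). Without Unigene28437 rho was 0.491, 0.571 and 0.953. These values describe how the members' counts ran together across members, all measured in the same 3 libraries, and the members were chosen on those counts.

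The range between the highest and the lowest tissue had a median of 3.48-fold over the members, with a library at 0 counts set to 3. It was under 2-fold for 17 members, 2- to 4-fold for 44, 4- to 16-fold for 24, 16- to 64-fold for 7 and 64-fold or more for 8. Unigene3689 (1582 nt) had the smallest range, 1.22-fold, with leaf, stem and root counts of 1467, 2189 and 3518. The median range was 3.03-fold at ranks 1 to 50 and 4.63-fold at ranks 51 to 100.

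The members held more very short unigenes than the ranks after them. Their median was 1325 nt, against 565 nt over all unigenes and 1673 nt at ranks 101 to 1000, and their lengths ran from 232 nt (Unigene54060) and 238 nt (Unigene54062) to 8690 nt (Unigene28437) and 10635 nt (Unigene29147). Members of up to 500 nt numbered 20 of 100, compared with 0.778% (7 of 900) at ranks 101 to 1000 and 45.9% of all unigenes. Of these 20, 17 stood at ranks 1 to 50. A further 14 members were longer but within 1000 nt, and 66 were over 1000 nt.

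Members of up to 500 nt took a larger share of TPM than of counts. Across members, length neither rose nor fell steadily with summed count (Spearman's rho -0.11, Pearson's r on log2 scales 0.13), a description over members chosen on that count. Length did differ by rank: its median was 3354 nt at ranks 1 to 10, 774.5 nt at ranks 11 to 50 and 1523 nt at ranks 51 to 100. The 20 members of up to 500 nt held 5.68% of the leaf library by counts, 4.19% of stem and 1.66% of root. Of the TPM they held 39.2% in leaf, 29.3% in stem and 17.3% in root. RSEM's effective length, by which TPM divides, was between 27.9% and 59.0% of the full length for them, with a median of 41.3%, compared with a median of 90.2% for members over 1000 nt. Their levels ran from 4998 to 55689 TPM in leaf, from 4396 to 38448 TPM in stem and from 2548 to 21094 TPM in root, with Unigene54060 at the top of all 3 ranges. The whole set of 100 held 62.7% of the leaf TPM, 47.6% of the stem TPM and 40.1% of the root TPM, so root was the lowest on this scale and stem the lowest by counts.

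**Figure D3:**
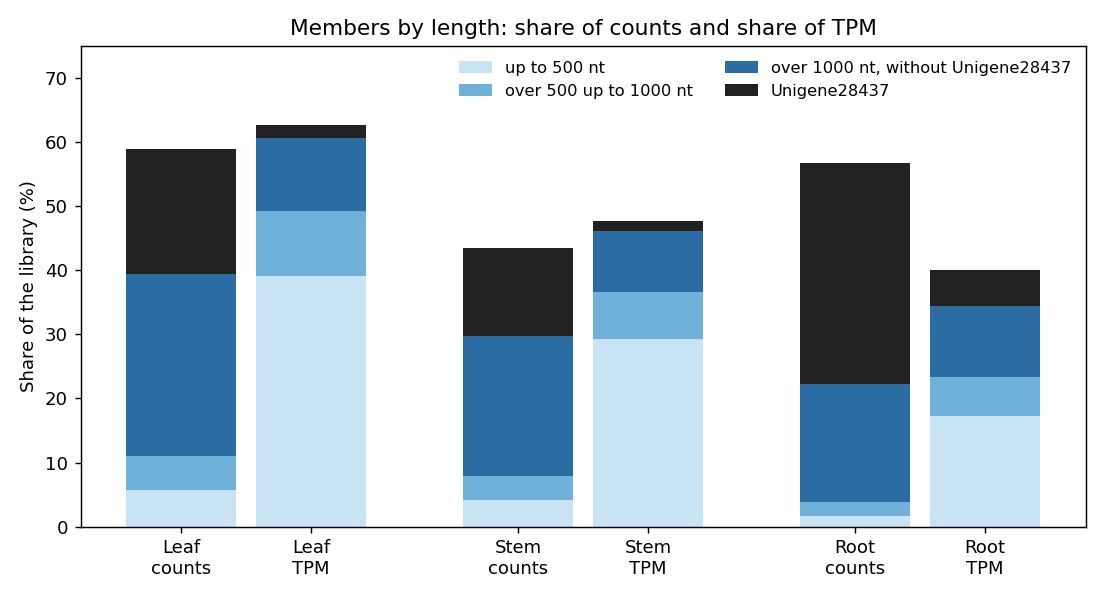
Share of the counts and of the TPM of the leaf, stem and root libraries (1 each) held by members of up to 500 nt, of over 500 and up to 1000 nt, of over 1000 nt without Unigene28437, and by Unigene28437. In root Unigene28437 made up 34.4% of counts and 5.71% of TPM, while members of up to 500 nt made up 1.66% of counts and 17.3% of TPM.

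The members' tissue patterns were read from TMM-scaled ratios: 2 tissues were called separated where the whole interval of their ratio lay beyond 2-fold. On this scale 19 members were level, with no pair of tissues separated. Leaf stood over both other tissues for 16 members, root over both for 18, and leaf and stem together over root for 8. Leaf was separated from root alone for 14 members and from stem alone for 3. For 4 members root was separated from leaf alone, and for 1, Unigene28437, root was separated from stem alone. The rest were graded from leaf over stem to root (5), from root over stem to leaf (7) or from stem over leaf to root (1), or had stem and root over leaf (4). No member had stem over both other tissues. The pattern of Unigene28437 rested on the scale, and its leaf over stem ratio, 2.00, lay at the limit. On deposited TPM and on totals without Unigene28437, it had root over both.

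Among 43451 unigenes with 10 or more counts over the 3 libraries, 77.4% were level. At few counts the interval is wide, so that a unigene can be level by this rule at any ratio, and at ranks 101 to 1000 the share was 42.4%. Leaf stood over both other tissues for 16 of the 100 members, against 0.778% at ranks 101 to 1000 and 0.529% of the 43451. Root over both was as frequent among members (18 of 100) as at ranks 101 to 1000 (16.9%), against 3.53% of the 43451. Leaf with stem over root, with 8 members, was found for 12.7% at ranks 101 to 1000 and 6.81% of the 43451. Separation of leaf from root alone, with 14 members, was found for 1.78% and 2.99%, in that order.

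The rarer patterns had these shares among the 43451: root over leaf alone 2.08% (4 members), root over stem alone 1.88% (1), leaf over stem alone 0.106% (3), graded leaf, stem, root 0.78% (5), graded root, stem, leaf 0.161% (7), graded stem, leaf, root 0.226% (1), and stem with root over leaf 0.269% (4). At ranks 101 to 1000 the same shares were 10.9%, 1.11%, 0.444%, 6.22%, 2.44%, 1.44% and 1%. The members thus lay near ranks 101 to 1000 in some of these patterns and apart from them in others, with few members behind each count.

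Several of these counts rested on the scale. The 8 members with leaf and stem over root became 32 on library totals and 15 on totals without Unigene28437, and the 19 level members became 33 on deposited TPM. For the 16 members with leaf over both tissues, the leaf over stem ratios lay between 2.05 and 2.71, just past the limit, and the number was 0 on library totals, 0 on totals without Unigene28437 and 0 on deposited TPM. Relative to TMM these scales moved the members' log2 leaf over stem ratios by -0.48, -0.38 and (median) -0.53. It was 16 with TMM computed without Unigene28437 and 16 with DESeq2 size factors. Comparisons among members within the same pair of libraries do not depend on the choice among scales with 1 size per library. Deposited TPM also divides by each unigene's effective length in each library, so its shift differs between members.

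The 3 most counted members with leaf over both were Unigene63717, Unigene9617 and Unigene42138, described above. The median length of the 16 was 536 nt, and 15 stood at ranks 1 to 50. Together they held 22.3% of the leaf library by counts, 13.2% of stem and 8.95% of root, the largest part of any pattern in leaf, and in stem and root the largest after that of Unigene28437. The level members, led by Unigene63619, Unigene63664 and Unigene69907 (1891 nt), held 7.56% of leaf, 8.02% of stem and 5.57% of root.

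The 18 members with root over both held 0.941% of the leaf library by counts, 1.36% of stem and 3.45% of root, and only 3 of them stood at ranks 1 to 50. Unigene53343 led them, followed by Unigene29628 (1962 nt), with leaf, stem and root counts of 2273, 3611 and 23366, and Unigene54198 (1333 nt), with 1198, 3593 and 13852 in the same order. Their leaf over root ratios were 0.284 (0.272 to 0.296) and 0.252 (0.238 to 0.268). The longest member of all, Unigene29147, was in this group as well, with leaf, stem and root counts of 403, 838 and 5590.

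Of the 7 members graded from root over stem to leaf, the most counted were Unigene59776 (1917 nt), Unigene38957 (1576 nt) and Unigene34770 (1430 nt). Unigene59776 had leaf, stem and root counts of 94, 719 and 28757, and stood at 14.1, 87.3 and 2323 TPM in that order. Unigene38957 had 48, 431 and 14688 counts, and its leaf over root ratio, 0.00954 (0.00703 to 0.0126), was equal at this rounding to that of Unigene59776 (0.0077 to 0.0117). Unigene34770 differed from both in stem, with leaf, stem and root counts of 96, 2783 and 12189.

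Among the 8 members with leaf and stem over root, the most counted were the short Unigene12234 (415 nt) and Unigene52030 (343 nt) and the longer Unigene9871 (1190 nt). Unigene12234 had leaf, stem and root counts of 25321, 22251 and 16415, and its leaf over root ratio was 4.50 (4.41 to 4.59). Unigene9871 had leaf, stem and root counts of 4906, 5743 and 1054, and its ratio was 13.6 (12.7 to 14.5). Unigene52030 lay nearer to Unigene12234, at 3.79 (3.67 to 3.93).

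Members graded from leaf over stem to root were led by Unigene4767 (405 nt), Unigene49972 (908 nt) and Unigene54062. Unigene49972 had leaf, stem and root counts of 14812, 7337 and 1182, with a leaf over root ratio of 36.6 (34.5 to 38.8), against 4.37 (4.26 to 4.47) for Unigene4767 and 5.22 (5.01 to 5.45) for Unigene54062. Only Unigene49041 (790 nt) was graded from stem over leaf to root, with leaf, stem and root counts of 1137, 6271 and 627.

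The 4 members with stem and root over leaf were 1567 to 4209 nt long. Unigene20536 (4209 nt) had leaf, stem and root counts of 846, 5847 and 6718, and Unigene41928 (4163 nt) had 783, 5236 and 6119 in the same order. The profiles of this pair were nearly the same, with leaf over stem ratios of 0.259 (0.240 to 0.278) and 0.267 (0.248 to 0.288). Unigene69887 (1567 nt) lay nearer to root, with leaf, stem and root counts of 754, 3318 and 7800.

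The remaining patterns separated only 1 pair of tissues. Of the 14 members with leaf separated from root alone, Unigene42139 (1540 nt), Unigene42140 (852 nt) and Unigene63665 (1238 nt) were the most counted, and the ratios of all 14 lay between 2.05 and 3.50. Of the 3 with leaf separated from stem alone, Unigene605, Unigene63621 (1267 nt) and Unigene63644 (282 nt), the leaf over stem ratios were 2.67, 2.51 and 2.12. Unigene63701 (2335 nt), Unigene64369 (1409 nt) and Unigene53775 (818 nt) led the 4 members with root separated from leaf alone, at leaf over root ratios of 0.284, 0.454 and 0.462.

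At a wider limit, an interval wholly beyond 4-fold, 16 members were higher in leaf than in root, against 6.99% of the 38203 unigenes with 10 or more counts in the pair and 11.9% of the 834 with 1000 or more. Lower in leaf than in root were 19, against 2.07% and 16.8% on the same bases. For stem over root, 10 members were higher, against 6.08% of 40723 unigenes and 8.29% of the 1086 with 1000 or more, and 14 were lower, against 1.88% and 10.3%. The members' counts thus lay within a few percentage points of the shares at 1000 or more counts, a class that also holds members, and nothing about the members is read from them. Both comparisons use the same root library. Between leaf and stem, 0 members were higher in leaf, against 0.21% of 34745 unigenes and 1.86% of the 484 with 1000 or more, and 1, Unigene34770, was higher in stem, against 0.314% and 2.07%, with a leaf over stem ratio of 0.0617 (0.0498 to 0.0756).

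The highest ratios of the shoot tissues to root were found at ranks 84 and 61. Unigene2944 (1972 nt) had leaf, stem and root counts of 3824, 3522 and 60, with ratios of 186 (144 to 244) for leaf over root and 95.8 (74.2 to 126) for stem over root. Unigene70069 (1165 nt) had 6546, 4789 and 105 in the same order, with ratios of 182 (150.0 to 223) and 74.4 (61.3 to 91.2). Both had the highest ratios of all members in both comparisons.

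Highest in root relative to the shoot was Unigene57388 (3006 nt), with leaf, stem and root counts of 0, 19 and 7408, at least 846-fold lower in leaf than in root with leaf set to 3 counts (the exact interval of its leaf over root ratio ended at 0.00145, which allows a smaller difference of 688-fold). Unigene39992 (3809 nt) had 1 count in leaf, 23 in stem and 6903 in root. The leaf over root ratio of Unigene39992 was 0.000423 (1.07e-05 to 0.00236). Nearly all counts of both came from root. The highest leaf over stem ratios of members were 3.61 (3.51 to 3.71) for Unigene49972 and 3.60 (3.47 to 3.73) for Unigene52874 (1681 nt), which had leaf, stem and root counts of 9265, 4605 and 268.

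On the TMM scale the members lay toward leaf where the unigenes below them lay toward root. Their median log2 leaf over root ratio was 0.68 (0.75 without Unigene28437, and 0.031 with all 100 on deposited TPM), against -0.66 at ranks 101 to 1000 and -0.30 over the 38203 unigenes with 10 or more counts. The median of leaf over stem was 0.45 among members, -0.25 at ranks 101 to 1000 and -0.11 over 34745 unigenes, but the members' median was -0.033 on library totals and -0.078 on deposited TPM. For stem over root it was 0.07 among members (-0.051 on deposited TPM), -0.36 at ranks 101 to 1000 and -0.12 over 40723. The values of these comparison classes are on TMM only, and the other scales move them too. Deposited TPM moved log2 leaf over root by a median of -0.65 over members and -0.64 over all unigenes. For leaf over stem it was -0.53 in both, and library totals moved this ratio by -0.48 for every unigene. The members' lean also moved both ways with the choice of members. Their median leaf over root was -0.63 where leaf was left out of the summed count and -0.41 where stem was. Their median stem over root was then -0.30 and -0.32. Such a choice favours unigenes high in the libraries kept, of which root was the deepest. The median leaf over root was 1.25 by mean share, 1.01 by summed TPM and 1.77 where root was left out. After TMM scaling, 54 members were highest in leaf, 6 in stem and 40 in root. On the TMM scale 23.1% of ranks 101 to 1000 were highest in leaf, 15.4% in stem and 61.4% in root.

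Leaf over root ratios were higher in the upper ranks and in the shorter members. Ranks come from the same summed counts, which leaned on root, the deepest library, so the split by rank is a description only. It was not repeated under another choice of members. At ranks 1 to 50, 41 members were higher in leaf than in root, with a median log2 ratio of 1.16, and at ranks 51 to 100 only 17 were, with a median of -1.13. All 20 members of up to 500 nt were higher in leaf than in root and higher in leaf than in stem, with median log2 ratios of 1.80 (0.93 to 2.39) and 1.03 (0.46 to 1.19). Between stem and root, 19 of the 20 were higher in stem, with a median of 0.91. On deposited TPM all 20 were still higher in leaf than in root, but only 17 of the 20 were higher in leaf than in stem and 3 were lower. Of the 14 members over 500 and up to 1000 nt, 9 were higher in leaf than in root, with a median of 1.14. Of the 7 unigenes of up to 500 nt at ranks 101 to 1000, 6 were higher in leaf than in root, with a median of 0.90. The 145 over 500 and up to 1000 nt at these ranks had a median of -0.87, with 46 higher in leaf. The 748 over 1000 nt had a median of -0.63, with 244 higher in leaf. Between these last classes the ratio thus did not fall with length, unlike among members. Members over 1000 nt had a median leaf over root of -0.90 and ran from 0 counts in leaf to a log2 ratio of 7.54. Across the 100 members, Spearman's rho of length with the leaf over root ratio was -0.51 (Pearson's r was -0.38), a description over members measured in the same libraries, with 1 count added to each value and r taken on log2 scales.

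The fullest band of leaf over stem ratios lay at another value among the members than at ranks 101 to 1000, and held a like share. In 2 bands placed where members were most frequent, each within 0.1 (log2) of its centre, 18 of the 100 lay between 1.94 and 2.21 and 17 between 1.31 and 1.48. The band of the same width placed where ranks 101 to 1000 were most frequent, around a log2 ratio of -0.29, held 17.2% of those unigenes. Since the bands were placed on the members, the 2.67% and 3.44% of ranks 101 to 1000 within them are no measure of an excess. The first band held Unigene28437, Unigene9617 and Unigene13486 and 10 of the 20 members of up to 500 nt, and its members held 30.0% of the leaf library by counts, 20.5% of stem and 37.7% of root. The second held Unigene63619, Unigene63664 and Unigene29170 and 5 of the short members. Another band, from 0.759 to 0.860, held 12 members, all over 1000 nt, and 16.4% of ranks 101 to 1000. Members of 1 band did not share 1 root level: in the first, the log2 leaf over root ratio ran from -1.22 to 7.54.

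**Figure D4:**
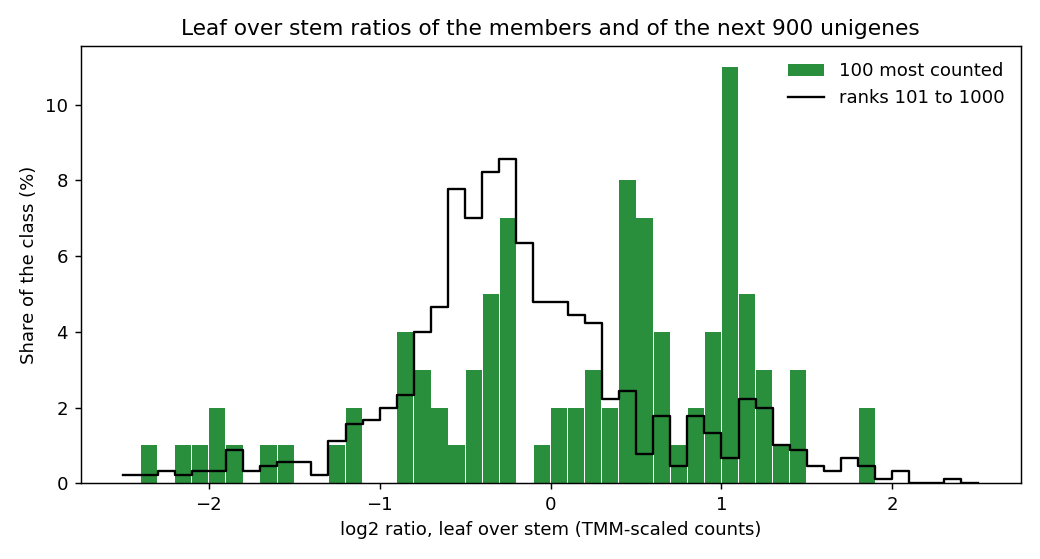
Distribution of the log2 leaf over stem ratio of TMM-scaled counts for the 100 members (bars) and the 900 unigenes at ranks 101 to 1000 (line), as the share of each class per bin of 0.1; 3 members and 17 of the 900 lie outside the bins drawn. The fullest band of the members, from 1.94 to 2.21 as a ratio, held 18 of the 100, and the fullest band of the 900, around -0.29 (log2), held 17.2% of them.

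Consecutive unigene numbers were frequent among the members. In 8 runs of consecutive numbers, 25 members had a neighbour that was also a member, 22 of them at ranks 1 to 50. At ranks 101 to 200, 11 unigenes had a neighbour in their own class. The runs held 22.6% of the leaf library by counts, 16.3% of stem and 11% of root. The run from Unigene63713 to Unigene63717 (288 to 3598 nt) held 10.98% of leaf, 6.55% of stem and 4.69% of root, and the run from Unigene63619 to Unigene63622 (263 to 3110 nt) held 4.84%, 4.47% and 3.12%. The others were Unigene42138 to Unigene42141, Unigene63664 to Unigene63666, Unigene54060 to Unigene54062, and the pairs beginning with Unigene22923, Unigene29050 and Unigene54197.

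Most neighbours had more similar tissue ratios than members at large. However, 22 of the 25 members in runs stood at ranks 1 to 50, where ranges between tissues were narrower. The median range was 3.03-fold there, against 4.63-fold at ranks 51 to 100. Neighbours were not compared with pairs from ranks 1 to 50 alone, so rank and neighbourhood cannot be told apart here. The median absolute log2 difference over the 17 neighbouring pairs was 0.33 for leaf over root, 0.65 for stem over root and 0.18 for leaf over stem, compared with 2.60, 1.72 and 0.92 over all pairs of members, without Unigene57388 in the leaf ratios, where it had 0 counts. Unigene54060, Unigene54061 and Unigene54062, of 232 to 250 nt, lay between 1.06 and 1.08 for leaf over stem (log2). Unigene54197 and Unigene54198 lay at -2.06 and -1.99 for leaf over root. The widest gap within a run was that of Unigene22923 (294 nt) and Unigene22924 (1255 nt), at 0.96 and 3.76 for stem over root, a difference of 2.80 that is above the median of all pairs. For leaf over root this pair lay at 2.03 and 3.89. Neighbours in a run may share reads or a source, and since no sequence was used, this was not tested.

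The make-up of the list depended on how the libraries were weighted. Choosing the 100 by the mean share of the 3 libraries kept 83 of the members, by summed TPM 76, and by summed count without root 72, against 90 without leaf and 90 without stem. With equal weights, 31 of the 100 passed 4-fold as higher in leaf against root and 5 as lower, compared with 16 and 19 in the list described. Without root counts in the choice, the numbers were 43 and 0. Under each of these choices the 100 chosen held 58.0% to 60.3% of the leaf counts, 42.7% to 44.4% in stem and 54.6% to 57.1% in root.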

How the data were processed

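RNA was sequenced from leaf, stem and root of *Lithospermum officinale* (2-year-old plants, 1 library each, column-extracted RNA, oligo(dT) capture, a strand-specific kit, paired reads averaging 101 bases, per the labels). The submitters' processing notes name Trimmomatic and RSEM. Assembler and aligner: not given in the sources used here. The authors deposited lengths and effective lengths, expected counts, TPM and FPKM of each unigene, per the file headers. All deposited expected counts were whole, for a reason not stated, and were used as they were. The deposited FPKM served only to check that the table merging the tissues holds the same values, with 0 differences. Deposited TPM were within 2% of values from counts and effective lengths for all unigenes with 20 or more counts.

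Scaling factors were computed with edgeR 4.0.16 (TMM) and, as an alternative, DESeq2 1.42.0 under R 4.3.3. No test was run, since 1 library per tissue leaves no spread to estimate. A ratio of scaled counts carries its exact conditional binomial (Clopper-Pearson) 95% interval, computed in Python 3.11.15 with pandas 2.3.3, numpy 2.4.6 and scipy 1.17.1. Backgrounds used unigenes with 10 or 1000 counts in the pair. A count of 0 was set to 3 for a bound. Members were named by fixed rules: the 10 most counted, the extremes of each comparison, of length and of TPM, the 3 most counted of each pattern, runs of numbers and the edge of the choice. Unigene3689, Unigene29170 and Unigene34355 were named after their values were seen. The members, lists and rules were chosen with earlier results of these data known, and the bands of leaf over stem ratios were noticed in the data.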

Additional observations from a re-analysis of the deposited data

How the results depend on the processing

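Under the alternatives 402 values were recomputed. Of these, 264 stayed within 1.5 times (counts), within the exact binomial interval (shares) or within the binomial order-statistic interval of a median, and 138 moved. These limits differ in width, and a share's interval is so narrow that all 27 recomputed shares of a library moved. The values also include shares of all unigenes beyond 4-fold at other count filters. Of those, 17 moved and 1 stayed, and they are not listed below. With 1 library per tissue there was no replicate to leave out. For the same reason no paired analysis was possible. TMM computed without Unigene28437 (added after seeing the data) or without the 100 members moved none of these values. The sign of a median turned in 8 cases inside or outside that interval: leaf over root was -0.63 without leaf and -0.41 without stem in the choice of members, stem over root -0.30 and -0.32 in these, -0.053 with upper quartile factors and -0.051 on deposited TPM, and leaf over stem -0.033 on library totals and -0.078 on deposited TPM. Below, "leaf-root" and the like name members separated in 1 pair of tissues only, and causes were not tested unless the construction shows them.

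By scale, library totals gave 8 members higher in stem than in leaf (4-fold), 11 with stem and root over leaf, 7 leaf-root, 0 leaf-stem, 2 graded leaf, stem, root, 0 with leaf over both, 10 with root over both, 32 with leaf and stem over root, and a median stem over root of 0.53. Totals without Unigene28437 gave 10 higher in leaf than in root, 6 higher in stem than in leaf, 8 root-leaf, 0 root-stem, 2 graded leaf, stem, root, 11 graded root, stem, leaf, 0 with leaf over both and 15 with leaf and stem over root. Deposited TPM gave 9 higher in leaf than in root, 8 higher in stem than in leaf, 0 leaf-stem, 9 root-leaf, 0 root-stem, 2 graded leaf, stem, root, 15 graded root, stem, leaf, 0 with leaf over both, 33 level and a median leaf over stem of -0.078, where the sign turned. Totals without the 100 members gave 1 leaf-stem and 1 root-leaf, and DESeq2 and upper quartile factors gave 0 root-stem each.

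By limit, intervals beyond 2-fold gave 44 higher and 33 lower in leaf than in root, 26 lower in stem than in root, and 24 higher and 12 lower in leaf than in stem. Beyond 8-fold there were 9 higher in leaf than in root and 9 lower in stem than in root. Point ratios beyond 4-fold gave 6 lower in leaf than in stem. Patterns at 1.5-fold were 5 leaf-root, 0 leaf-stem, 0 root-stem, 18 graded leaf, stem, root, 14 graded root, stem, leaf and 10 level. At 4-fold they were 1 with stem and root over leaf, 6 leaf-root, 0 leaf-stem, 0 in each graded pattern, 0 with leaf over both and 64 level.

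By choice of members, the shares of leaf, stem and root were 59.9%, 44.2% and 55.7% by mean share, 59.0%, 43.3% and 55.8% by summed TPM, 39.4%, 29.8% and 22.4% for ranks 2 to 101, 58.0%, 42.9% and 57.1% without leaf, 58.3%, 42.7% and 57.1% without stem, and 60.3%, 44.4% and 54.6% without root. As shares of TPM they were 62.7%, 47.6% and 40.1% (61.9%, 46.8% and 36.4% without Unigene28437), and as counts without it 49.0%, 34.5% and 34.0%. Mean share gave 31 higher and 5 lower in leaf than in root, 23 higher and 5 lower in stem than in root, 11 graded leaf, stem, root, 3 graded root, stem, leaf, 3 graded stem, leaf, root, 7 with root over both, 15 with leaf and stem over root, and medians of 1.25 (leaf over root) and 0.58 (stem over root). Summed TPM gave 10 lower in leaf and 8 lower in stem than in root, 2 lower in leaf than in stem, 2 with stem and root over leaf, 5 leaf-stem, 3 graded stem, leaf, root and 8 with root over both. Ranks 2 to 101 gave 0 root-stem. Without leaf there were 9 higher in leaf and 4 higher in stem than in root, 3 graded leaf, stem, root and 4 with leaf and stem over root. Without stem there were 9 and 4, 0 graded stem, leaf, root, 28 with root over both and 3 with leaf and stem over root. Without root there were 43 higher and 0 lower in leaf than in root, 34 higher and 0 lower in stem than in root, 0 lower in leaf than in stem, 16 graded leaf, stem, root, 0 graded root, stem, leaf, 5 graded stem, leaf, root, 3 with root over both, 20 with leaf and stem over root, and medians of 1.77 (leaf over root), 0.88 (stem over root) and 0.61 (leaf over stem).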
